A study of Mus musculus with 8 samples.

Results

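Cdh5, Pecam1, Cd34, Cd93, Esam, Emcn, Calcrl and Ramp2, 8 genes for proteins of the endothelial surface and of the junctions between endothelial cells, were followed through 8 mRNA-seq libraries of the newborn mouse inner ear. They were taken by gene symbol from a table of 15275 genes, in which each had 1 entry, and they were chosen by their values: all are known as genes of blood vessel lining that were high in the vascular endothelial libraries, and Calcrl was also chosen because its values in those 2 libraries lay far apart. Inner ears of ICR mice, at postnatal day 0 by their labels, were dissociated, stained with antibodies to CD326, CD49f and CD34, and sorted. The 4 cochlear libraries were vascular endothelium, neurons, mesenchyme and epithelial cells, and the 4 vestibular libraries were the same cell types. There was 1 library for each cell type and organ, with no mutation or treatment, and the number of animals behind a library was not given, so no difference between organs within a cell type has a replicate check. The antibody to CD34 was part of the sort, so a high Cd34 value in vascular endothelium was built into that library and is no finding.

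The inner surface of every blood vessel is a sheet of endothelial cells that hold on to each other through adhesion proteins at their borders and face the blood with a coat of heavily glycosylated proteins. VE-cadherin, the product of Cdh5, ties the membranes of neighbouring cells to their actin cytoskeleton, and immunoglobulin-type proteins such as PECAM-1 and ESAM lie along the same borders. Calcrl and Ramp2 make the parts of 1 receptor: the calcitonin receptor-like receptor reaches the cell surface only with a receptor activity-modifying protein, and with RAMP2 it binds adrenomedullin, a peptide that widens vessels and stabilises their barrier. In the cochlea the vessels of the stria vascularis and the spiral ligament form a blood-labyrinth barrier.

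The deposited value of a gene is a signal whose spread of values was the same in all 8 libraries, with a median of 374.4, a highest value of 203006.1 and a lowest of 20, which 2058 genes carried in each library. A value of 20 is therefore a floor and not a measured zero, and because all libraries were given 1 common total, read depth and the counting error behind a value are unknown. Whether values were divided by transcript length was not given in the sources used here, so each gene is compared across libraries and not with another gene. In bulk samples, fewer cells of a type and less RNA per cell cannot be told apart.

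The labels were checked against marker lists that hold none of the 8 genes. Of 10 markers of vascular endothelium, all 10 were higher in both vascular endothelial libraries than in any other, as 10.2% of all genes were. Of 10 neuronal genes, 5 were highest in the cochlear library labelled neurons, whose median log2 value of 8.57 was above those of the 7 other libraries, but none was highest in the vestibular library labelled neurons, whose median was 5.56, under the 6.89 of vestibular epithelial cells. The libraries labelled neurons also held the highest values of 9 of 10 genes of glia and Schwann cells, 5 in the cochlear and 4 in the vestibular one. The vestibular library labelled neurons also held the highest values of 5 of 10 pericyte and smooth muscle genes, with Rgs5 at 147259.9. The vestibular vascular endothelial library had higher values of the epithelial, mesenchymal, glial, neuronal and pericyte lists than the cochlear one. The median log2 value of 10 epithelial genes was 5.71 in cochlear and 9.22 in vestibular vascular endothelium. That of 10 mesenchymal genes was 7.02 in the cochlear library and 10.42 in the vestibular one, and that of the 10 glial genes 7.67 and 9.49. The lists of blood cells went the other way. Their medians in cochlear and vestibular vascular endothelium were 8.35 and 8.25 for erythroid genes, 6.61 and 6.43 for leukocyte genes, and 6.98 and 5.02 for stem cell and platelet genes.

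The junction genes were highest in cochlear vascular endothelium. Cdh5, on chromosome 8 of GRCm38 from 104101625 to 104144511, had 67384.5 in cochlear and 28959.6 in vestibular vascular endothelium. Outside these it had 260.9 and 2598.3 in the cochlear and vestibular libraries labelled neurons, 122.4 and 254.8 in cochlear and vestibular mesenchyme, and 20 and 131.8 in cochlear and vestibular epithelial cells. The lower endothelial value was thus 11.2-fold above the highest other one, and cochlear epithelial cells were at the floor.

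Pecam1 (chromosome 11, 106654217 to 106750628, minus strand), which encodes an adhesion protein of endothelial borders that platelets and leukocytes also carry, was likewise highest in cochlear vascular endothelium. Its values were 22107.5 and 10762.1 in cochlear and vestibular vascular endothelium, 164.9 and 1039.0 in the cochlear and vestibular libraries labelled neurons, 23.8 and 43.6 in cochlear and vestibular mesenchyme, and 20 and 80.4 in cochlear and vestibular epithelial cells. The endothelial libraries did not overlap with the others, and the gap was 10.4-fold. Of 10 markers of macrophages and other leukocytes, which could carry Pecam1 too, 6 were higher in cochlear and 4 in vestibular vascular endothelium, and they summed to 2300 in cochlear and 1610 in vestibular vascular endothelium. Among the 6, Csf1r had 641.0 in cochlear and 122.0 in vestibular vascular endothelium and Cx3cr1 204.1 and 39.6, the direction of Pecam1. The 4 that went the other way were Mrc1 with 563.3 and 691.6, Cd68 with 158.4 and 223.3, Lyz2 with 59.1 and 171.0, and Ptprc with 27.6 and 59.8. Of 6 measured genes of blood stem cells, megakaryocytes and platelets, 5 were higher in the cochlear endothelial library, among them Itga2b with 144.6 in cochlear and 36.0 in vestibular vascular endothelium. They summed to 3844 and 3232, of which Kit, a receptor found on many cell types, gave 3345.0 and 3005.3. The part of blood cells in the organ difference of Pecam1 was not tested.

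Esam (chromosome 9, 37528078 to 37538319), whose product sits at tight junctions of endothelium and on platelets, separated the libraries by less. It had 14470.6 in cochlear and 2308.3 in vestibular vascular endothelium, 133.9 and 785.8 in the cochlear and vestibular libraries labelled neurons, 50.6 and 125.5 in cochlear and vestibular mesenchyme, and 20 and 32.0 in cochlear and vestibular epithelial cells. The vestibular endothelial value was only 2.94-fold above that of the vestibular library labelled neurons.

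The sialomucins, proteins of the glycosylated coat, differed in where else they were found. Cd34 (chromosome 1, 194938819 to 194961279) had 40861.6 in cochlear and 22463.0 in vestibular vascular endothelium, 127.3 and 1788.5 in the cochlear and vestibular libraries labelled neurons, 227.3 and 226.4 in cochlear and vestibular mesenchyme, and 68.0 and 190.5 in cochlear and vestibular epithelial cells. Its lower endothelial value was 12.6-fold above the next library. Emcn (chromosome 3, 137341067 to 137432185), which encodes endomucin, known from capillaries and veins, had 6263.6 in cochlear and 9194.6 in vestibular vascular endothelium, but 7000.5 in cochlear and 2399.8 in vestibular mesenchyme. It had 153.0 and 1023.8 in the cochlear and vestibular libraries labelled neurons and 45.9 and 54.1 in cochlear and vestibular epithelial cells. Emcn was the exception among the 8 genes: cochlear mesenchyme lay above cochlear vascular endothelium, at 112% of it, while vestibular mesenchyme was at 26.1% of vestibular vascular endothelium.

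Cd93 (chromosome 2, 148436640 to 148443563, minus strand) encodes a C-type lectin receptor of the endothelial surface that binds the matrix protein multimerin-2. It had 58898.6 in cochlear and 109100.4 in vestibular vascular endothelium, 239.0 and 4020.9 in the cochlear and vestibular libraries labelled neurons, 154.3 and 253.1 in cochlear and vestibular mesenchyme, and 25.1 and 137.0 in cochlear and vestibular epithelial cells. The gap between its lower endothelial value and the highest other library was 14.7-fold, the widest of the 8.

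Between the vascular endothelial libraries, the parts of the adrenomedullin receptor ran in opposite directions, but Calcrl was chosen for its ratio there. In the libraries labelled neurons both genes were lower on the cochlear side. The endothelial ratio of Ramp2 was smaller when set against genes of like GC content, as given below. Calcrl (chromosome 2, 84330626 to 84425411, minus strand) had 3950.3 in cochlear and 82226.3 in vestibular vascular endothelium. It had 80.5 and 915.8 in the cochlear and vestibular libraries labelled neurons, 424.5 and 783.9 in cochlear and vestibular mesenchyme, and 20 and 21.6 in cochlear and vestibular epithelial cells, so that both endothelial libraries stayed above all others by at least 4.31-fold. Ramp2 (chromosome 11, 101246028 to 101259546) had 6875.8 in cochlear and 2029.8 in vestibular vascular endothelium, 148.5 and 496.6 in the cochlear and vestibular libraries labelled neurons, 416.4 and 221.0 in cochlear and vestibular mesenchyme, and 20 in both epithelial libraries. Its endothelial values were at least 4.09-fold above the others.

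Some of these values may hold reads of neighbours. A Ramp2 transcript that runs on into Vps25 shares 1103 exon bases with that gene on the same strand, and Vps25 varied little, between 812.4 in cochlear mesenchyme and 1169.8 in cochlear vascular endothelium. Cd34 and Cdh5 overlap antisense genes, and whether reads were counted by strand was not given in the sources used here.

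Across the 8 genes, both endothelial libraries were above all others for 7, as they were for 10.2% of all genes, and above both epithelial libraries and both libraries labelled neurons for all 8. In the model fitted to log2(value + 1), with terms for organ and cell type, vascular endothelium exceeded the mean of the other cell types by 8.46 for Cd93, 7.80 for Cdh5, 7.54 for Pecam1, 7.03 for Cd34, 6.90 for Calcrl, 6.03 for Esam, 4.96 for Ramp2 and 4.12 for Emcn on the log2 scale. Over all 15275 genes the median of this difference was -0.03, and limma called 5.96% of genes higher and 5.14% lower in vascular endothelium at an adjusted p under 0.05. The 8 genes were selected on this contrast, so their differences and this count are given with no test, and nothing is read from them.

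**Figure D1:**
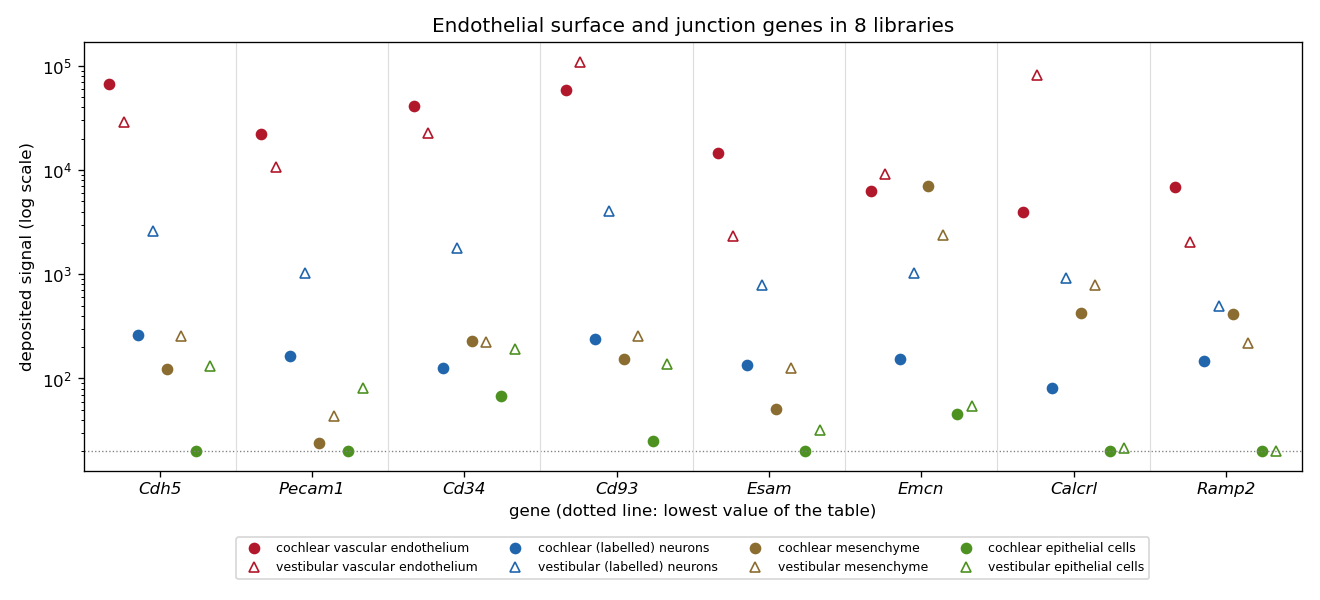
Deposited signal on a log axis of the 8 genes in the 8 libraries, 1 point per library, with filled circles for cochlear and open triangles for vestibular libraries and the dotted line at the floor of 20. Both vascular endothelial points lie above all others for 7 of the 8 genes, while for Emcn cochlear mesenchyme (7000.5) lies above cochlear vascular endothelium (6263.6).

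The promoters of 3 of the 8 genes, Cd34, Emcn and Calcrl, were matched in the RefSeq table of GRCm38.p6. These are shown because the other genes had no promoter there. Each runs from 250 bases before to 50 bases after the transcription start, and capitals mark on either strand the letters AGGAAG, a core that transcription factors of the ETS family recognise, and those of its variant CGGAAG. The windows lie at chr1:194938571-194938870 on the plus strand, chr3:137340828-137341127 on the plus strand and chr2:84425217-84425516 on the minus strand.
Cd34: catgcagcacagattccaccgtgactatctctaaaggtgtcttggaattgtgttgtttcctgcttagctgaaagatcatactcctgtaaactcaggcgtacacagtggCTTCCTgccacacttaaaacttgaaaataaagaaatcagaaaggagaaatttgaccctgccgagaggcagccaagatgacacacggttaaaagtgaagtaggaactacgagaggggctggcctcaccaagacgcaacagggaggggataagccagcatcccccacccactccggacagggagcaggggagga
Emcn: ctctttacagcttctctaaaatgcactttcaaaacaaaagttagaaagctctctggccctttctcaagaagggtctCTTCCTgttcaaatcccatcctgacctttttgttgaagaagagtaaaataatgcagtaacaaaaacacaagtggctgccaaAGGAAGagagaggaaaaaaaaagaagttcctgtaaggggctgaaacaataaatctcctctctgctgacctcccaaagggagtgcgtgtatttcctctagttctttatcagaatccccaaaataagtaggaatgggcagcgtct
Calcrl: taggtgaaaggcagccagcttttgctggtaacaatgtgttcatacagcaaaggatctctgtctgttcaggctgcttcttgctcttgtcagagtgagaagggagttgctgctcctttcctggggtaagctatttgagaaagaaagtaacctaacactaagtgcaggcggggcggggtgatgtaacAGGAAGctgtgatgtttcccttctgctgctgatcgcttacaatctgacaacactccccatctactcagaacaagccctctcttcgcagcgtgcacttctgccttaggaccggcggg
The ETS letters began at base -142 from the start for Cd34, at -174 and -93 for Emcn and at -66 for Calcrl. Of 32544 promoters of this length, 46.3% held at least 1 such match, so a match in 3 of 3 describes these windows and is no sign of a site. The letters AGATAA, a core of GATA factors, and their variant TGATAA were present on either strand in 18.5% of promoters and, of these 3 windows, in that of Emcn. The TATA box letters TATAAA (13.6% of promoters) were in none of the 3 windows on either strand, and neither were the forkhead letters TGTTTA (13.4%). The letters CACCC, part of KLF factor cores, stood in 57.7% of promoters and in the windows of Cd34 and Calcrl.

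Between the vascular endothelial libraries, 5 of the 8 genes were higher on the cochlear side and 3 on the vestibular side. The cochlear value was 6.27-fold the vestibular one for Esam, 3.39-fold for Ramp2, 2.33-fold for Cdh5, 2.05-fold for Pecam1 and 1.82-fold for Cd34. It was 20.8-fold lower for Calcrl, 1.85-fold lower for Cd93 and 1.47-fold lower for Emcn. A ratio over 4, counted among the 11782 genes with at least 100 in either library, was reached by Esam in the cochlear direction, as it was by 4.81% of those genes, and by Calcrl in the vestibular direction, as by 6.37%. The counts behind these shares, 567 and 750 genes, were 433 and 898 with median-of-ratios scaling. Calcrl was chosen for this ratio, so its size is a description and nothing is read from it. Esam was exceeded by 199 genes (1.69%) in its direction and Ramp2 by 855 (7.26%). These are differences between 1 library and 1 library, with no test.

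The organ ratio of vascular endothelium moved with the base composition of the transcripts. Over 11659 genes, Spearman's rho between the log2 cochlear over vestibular ratio and the GC content of the transcript was 0.675, across genes that share both libraries. When these genes were divided by GC content into 10 bins of like size, the bin with the lowest GC content, 32.2% to 41.9%, had a median log2 ratio of -1.38, and the bin with the highest, 58.2% to 76.3%, had 1.32. For the other cell types rho was 0.492 in the libraries labelled neurons, -0.185 in mesenchyme and -0.303 in epithelial cells. Calcrl had the lowest GC content of the 8 genes, 37.8%, and Ramp2 the highest, 60.1%.

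Set against the median of its own GC bin, a comparison chosen after seeing the data, the log2 ratio of Calcrl was -3.00 in place of -4.38, or 7.98-fold lower in cochlear vascular endothelium. That of Esam was 2.06 in place of 2.65, and 16 of 1166 genes of its bin had a higher one. Ramp2 moved from 1.76 to 0.44, with 347 of 1166 genes of its bin above it, and Emcn turned from -0.55 to 0.83. Cd34 stayed at 0.88 against 0.86, Pecam1 was at 0.76 against 1.04, Cdh5 at 0.63 against 1.22, and Cd93 at -0.59 against -0.89. Thus 6 genes were above and 2 below the genes of like GC content. The part of GC content in the ratios was not tested beyond this, and neither was the part of the epithelial and mesenchymal RNA in the vestibular endothelial library. Calcrl had 20 and 21.6 in cochlear and vestibular epithelial cells and 424.5 and 783.9 in cochlear and vestibular mesenchyme. Its 82226.3 in vestibular vascular endothelium was part of why it was chosen, so nothing is read from setting these values side by side.

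**Figure D2:**
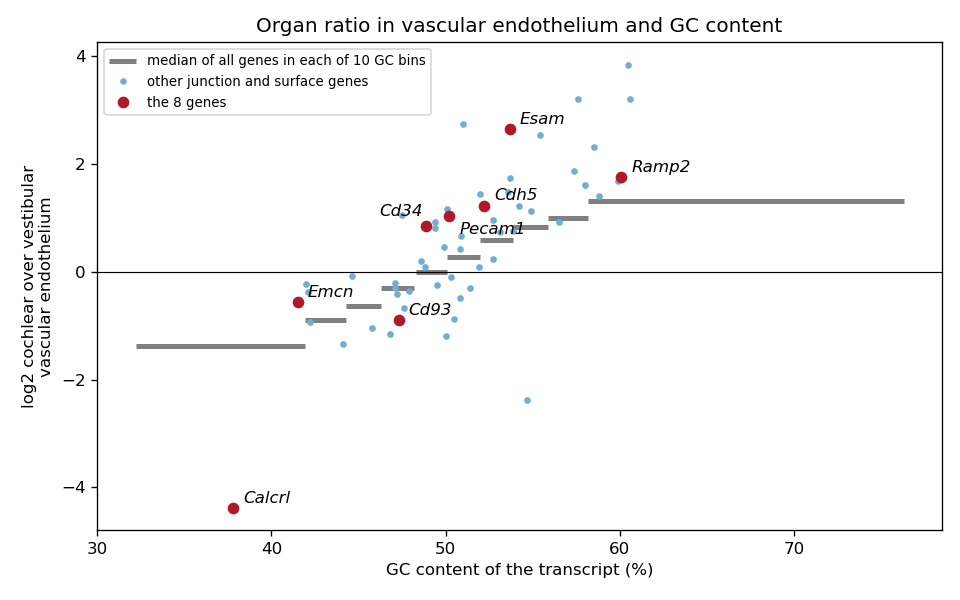
Log2 ratio of cochlear over vestibular vascular endothelium against the GC content of the transcript in percent, with red points for the 8 genes, small blue points for the other junction and surface genes and grey bars for the median of all genes in each of 10 bins by GC content. The grey bars climb from -1.38 in the lowest bin to 1.32 in the highest, and Calcrl, at -4.38, lies below the bar of its bin, whereas Esam, at 2.65, lies above its own.

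Outside endothelium, the vestibular library labelled neurons was next after the endothelial ones for 7 of the 8 genes. All 8 genes were lower in the cochlear than in the vestibular library labelled neurons, from 3.34-fold for Ramp2 to 16.8-fold for Cd93. The share of all genes with either pattern was not counted, so neither count is read as a trait of the 8 genes. As a share of the vestibular endothelial value they reached 34.0% for Esam, 24.5% for Ramp2, 11.1% for Emcn, 9.65% for Pecam1, 8.97% for Cdh5, 7.96% for Cd34, 3.69% for Cd93 and 1.11% for Calcrl. In the cochlear library the same share ran from 0.312% for Cd34 to 2.44% for Emcn. The 10 endothelial markers that are not among the 8 genes moved alike: they had 3.91% (Flt1) to 56.8% (Cldn5) of their vestibular endothelial value in the vestibular library labelled neurons, with a median of 8.76%, and 0.393% to 1.64% in the cochlear one, and all 10 were lower in the cochlear library. Relative to genes of like GC content all 8 genes were still lower in the cochlear library, with log2 ratios between -3.93 (Cd93) and -2.08 (Emcn). Several lists of other cell types also had a lower median log2 value in the cochlear library labelled neurons than in the vestibular one. The medians were 4.44 and 9.09 for epithelial, 10.49 and 12.57 for mesenchymal and 8.94 and 10.47 for pericyte genes. They were 6.91 and 8.15 for leukocyte and 4.68 and 7.07 for erythroid genes. The neuronal, glial and platelet lists went the other way. Which cells carried these values was not tested.

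In mesenchyme the organs differed by gene. Emcn was 2.92-fold and Ramp2 1.88-fold higher in cochlear than vestibular mesenchyme, Cd34 had 227.3 and 226.4 in cochlear and vestibular mesenchyme, and the cochlear value was 0.403 to 0.610 times the vestibular one for the other 5. As a share of the endothelial value, mesenchyme had 10.8% in the cochlea and 0.953% in the vestibule for Calcrl and 6.06% and 10.9% for Ramp2. The shares were 112% and 26.1% for Emcn, 0.556% and 1.01% for Cd34, and 0.350% and 5.44% for Esam. They were 0.182% and 0.880% for Cdh5, 0.108% and 0.405% for Pecam1, and 0.262% and 0.232% for Cd93. The shares of Calcrl rest on the endothelial values for which it was chosen. Cochlear epithelial cells had the lowest value of all 8 genes, tied with vestibular epithelial cells for Ramp2. The share of all genes lowest in that library was not counted. In cochlear epithelial cells 5 of the 8 genes were at the floor and in vestibular epithelial cells 1 was, against 2058 of all 15275 genes in each library.

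**Figure D3:**
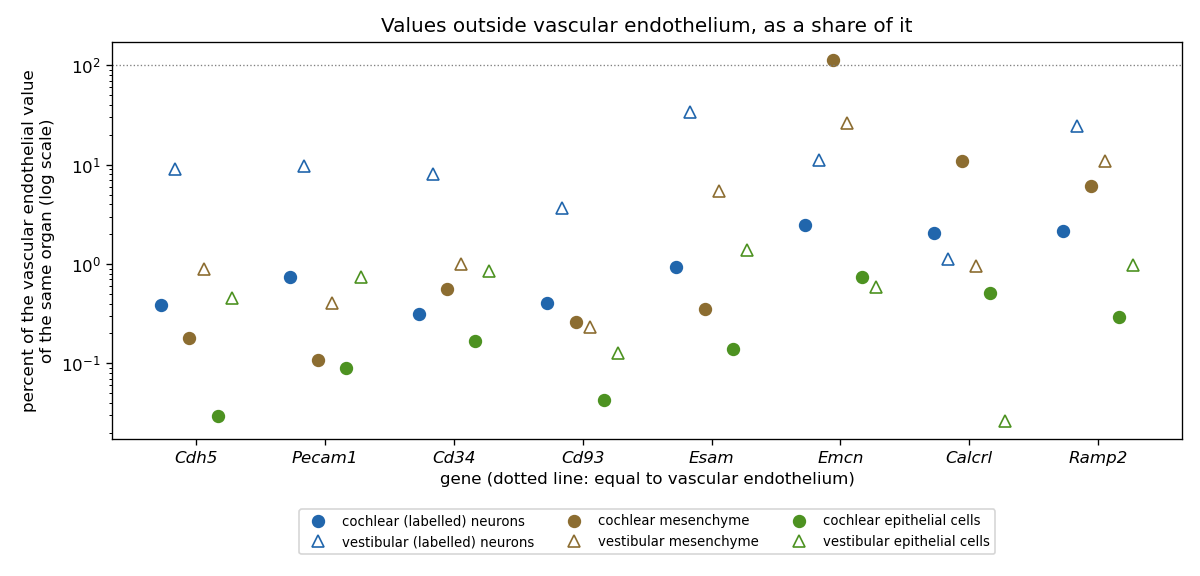
Value of the 8 genes in the 6 other libraries as a percent of the vascular endothelial value of the same organ, on a log axis, with filled circles for cochlear and open triangles for vestibular libraries and the dotted line at 100%. The open blue triangles of the vestibular library labelled neurons lie between 1.11% and 34.0%, above the filled blue circles for 7 of the 8 genes, and the mesenchymal points are highest for Emcn.

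Within the adrenomedullin and CGRP system, the ligand gene and 1 adenylyl cyclase gene were called higher in endothelium, but only with all 8 libraries. The genes of the other receptor partners were not called. Of 12 measured genes of this list other than Calcrl and Ramp2, limma called 2 higher and 0 lower in vascular endothelium, against 5.96% and 5.14% of all genes, and 2 had both endothelial libraries above all others, against 10.2% of all genes. The list's median difference was -0.12 on the log2 scale, near the -0.03 of all genes. Adm, which encodes adrenomedullin, had 419.6 in cochlear and 201.9 in vestibular vascular endothelium against 20 to 87.6 elsewhere, and its model difference was 2.86 (SE 0.51, adjusted p = 0.0376). Adcy4 encodes 1 of the adenylyl cyclases of the list, enzymes that make cAMP, through which this receptor acts. Which of them serves the receptor here was not tested. Adcy4 had 3064.8 in cochlear and 1235.8 in vestibular vascular endothelium and 20 to 981.5 elsewhere, with a difference of 3.82 (SE 0.76, adjusted p = 0.0468). The calls of Adm and Adcy4 were lost whichever of the 8 libraries was left out, with differences of 2.04 to 3.68 for Adm and 2.66 to 4.98 for Adcy4.

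The other partners of Calcrl were low in endothelium. Ramp1, which makes Calcrl a receptor of CGRP, was at the floor in both vascular endothelial libraries and reached at most 71.5, in vestibular mesenchyme. Ramp3, with which Calcrl also forms an adrenomedullin receptor, had 133.0 in cochlear and 77.6 in vestibular vascular endothelium against 794.1 and 326.0 in cochlear and vestibular mesenchyme, 46.1 and 60.0 in the cochlear and vestibular libraries labelled neurons, and 73.9 and 20 in cochlear and vestibular epithelial cells. Calca, the gene of calcitonin and CGRP, was at the floor in 6 libraries and highest at 52.4 in vestibular epithelial cells.

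The remaining genes of the list did not pass the test. Ackr3, a receptor that takes up adrenomedullin and chemokines, had 230.1 in cochlear and 398.4 in vestibular vascular endothelium, with a difference of -1.14 (SE 0.39, adjusted p = 0.137). Mme, a peptidase that degrades such peptides, had 928.8 and 2002.0 there and 27502.9 in cochlear mesenchyme. The differences were -0.96 for Adcy3, -0.90 for Adcy6, 0.09 for Adcy7, 0.22 for Crcp, a component of CGRP receptor signalling, and 0.25 for Gnas, the stimulatory G protein subunit. None of the 10 genes of the list with at least 100 in either endothelial library differed over 4-fold between them. Of all such genes, 4.81% did in the cochlear and 6.37% in the vestibular direction.

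**Figure D4:**
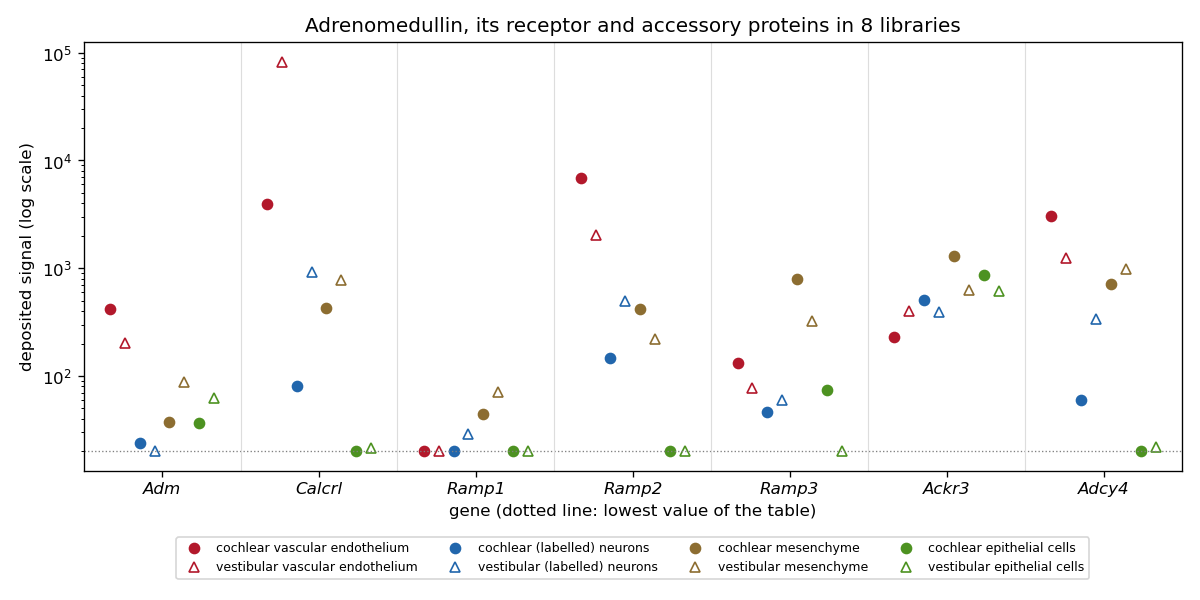
Deposited signal on a log axis of the ligand gene Adm, the receptor gene Calcrl, its partners Ramp1, Ramp2 and Ramp3, the uptake receptor Ackr3 and the adenylyl cyclase Adcy4 in the 8 libraries, with filled circles for cochlear and open triangles for vestibular libraries. Adm, Calcrl, Ramp2 and Adcy4 have both red endothelial points on top, Ramp1 has both at the floor of 20, and Ramp3 and Ackr3 are highest in cochlear mesenchyme.

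Other junction and surface genes of endothelium give the setting of the 8. These lists hold genes known from endothelium and were chosen with earlier results of these data known. Many calls could thus be foreseen, and they are given as a description. Of 29 other surface genes, 22 were called higher and 0 lower in vascular endothelium, with a median difference of 4.94 on the log2 scale against -0.03 over all genes and 5.96% of genes called higher. The 3 with the largest called differences were Adgrl4, an adhesion receptor of endothelium, at 7.68 (SE 0.78, adjusted p = 0.0171), Flt1, a VEGF receptor, at 7.33 (SE 0.96, adjusted p = 0.0240), and Mmrn2, which encodes the CD93 ligand multimerin-2, at 6.86 (SE 0.86, adjusted p = 0.0219). Mmrn2 had 9612.1 in cochlear and 3416.6 in vestibular vascular endothelium and at most 579.1 elsewhere. Unlike Cd93, Mmrn2 was higher in the cochlear endothelial library, by 2.81-fold.

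Of 21 other junction genes, 6 were called higher and 0 lower, with a median difference of 1.33. The largest called differences were those of Ptprb, the phosphatase that acts on VE-cadherin complexes, at 7.63 (SE 0.48, adjusted p = 0.00822), Ccm2l, at 5.56 (SE 0.66, adjusted p = 0.0200), and Heg1, a transmembrane partner of the CCM proteins, at 3.01 (SE 0.31, adjusted p = 0.0175). Many genes of this list also serve epithelial junctions. Ctnnb1, the cadherin partner beta-catenin, which was named after its values were seen, had 55018.0 in cochlear and 58437.5 in vestibular vascular endothelium and 17510.0 to 33585.6 elsewhere, a difference of 1.33 that did not pass (adjusted p = 0.109).

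These calls rest on 3 residual degrees of freedom, in which the variation of the organ difference among the cell types serves as the spread. Of the 50 junction and surface genes together, 28 were called higher. Without the cochlear vascular endothelial library, the cochlear mesenchyme or the vestibular mesenchyme 0 were, and without the vestibular endothelial library 18, the cochlear and vestibular libraries labelled neurons 14 and 21, and the cochlear and vestibular epithelial cells 7 and 6. Over 12 refits of the model, the differences of the 8 genes themselves ran from 3.62 for Emcn without the cochlear library labelled neurons to 9.58 for Cdh5 without vestibular vascular endothelium. The organ term of the same model had 0 calls over all genes by limma, with 964 genes at an unadjusted p under 0.05.

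Between the endothelial libraries, 6 of the 49 eligible junction and surface genes were over 4-fold higher in the cochlear and 1 in the vestibular one. Of all eligible genes, 4.81% and 6.37% were. Cldn5, the main claudin of endothelial tight junctions, led with 26900.0 in cochlear and 1859.5 in vestibular vascular endothelium, 14.5-fold. Plvap, the protein of fenestral diaphragms, had 10318.6 and 1115.8, Tie1, a receptor of the angiopoietin system, had 31913.9 and 3459.8, and Selp, the adhesion protein P-selectin, had 134.0 and the floor of 20. Cgn, which encodes the tight junction protein cingulin, had 22.9 in cochlear and 118.0 in vestibular vascular endothelium, and 1903.9 and 2018.8 in cochlear and vestibular epithelial cells. Relative to genes of like GC content the counts were 3 and 1 of 49, against 162 and 577 of all 11659 genes. Cldn5 was then at 2.53 in place of 3.85 on the log2 scale.

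Relatives of the 8 proteins differed in whether they were high in endothelium. Of 16 measured genes, limma called 3 higher and 2 lower, against 5.96% and 5.14% of all genes. Both endothelial libraries were above all others for 4 of them, against 10.2% of all genes. The median difference was -0.97, in a list that also holds cadherins of epithelium and mesenchyme. The 3 called higher, Thbd, Clec14a and Podxl, were also counted among the surface genes above. The C-type lectin relatives of Cd93 split: Thbd, which encodes thrombomodulin, was higher by 4.71 (SE 0.58, adjusted p = 0.0212) and Clec14a by 4.94 (SE 0.30, adjusted p = 0.00779), whereas Cd248 had -1.80 and its highest values, 2017.3 and 2783.1, in mesenchyme. Of the CD34 relatives, Podxl was higher by 4.76 (SE 0.87, adjusted p = 0.0401) and Podxl2 had -1.90 (adjusted p = 0.0662).

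Among cadherins, Cdh1, the epithelial cadherin, was lower, at -3.36 (SE 0.64, adjusted p = 0.0431), and so was Cdh11, a mesenchymal one, at -2.32 (SE 0.43, adjusted p = 0.0413). Cdh2, Cdh3 and Cdh4 had 0.77, -1.57 and -1.60 and did not pass. Of the immunoglobulin relatives of Esam, F11r had 3.10, Jam2 1.26, Jam3 -1.37 and Cxadr -2.36, and none passed, nor did Ramp1 (-0.57) and Ramp3 (0.00). Of the 15 eligible genes of this list, 4 were over 4-fold higher in the vestibular than the cochlear endothelial library and 0 the other way, against 6.37% and 4.81% of all eligible genes. They were Cxadr, Cdh3, Cdh1 and Cd248, with Cxadr at 92.4 in cochlear and 1236.1 in vestibular vascular endothelium, 13.4-fold. Cdh1 was also counted in the list of epithelial markers above. The part of RNA of other cell types in these ratios was not tested.

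The genes whose pattern over the 8 libraries was most like the mean of the 8 genes were found by Pearson's r of log2(value + 1) among the 13355 genes that reached 100 in any library. They were Lgals9 (r = 0.996), Med20, Elf4, Ppp1r16b, Ecm1, Nova2, Cd109, Lmo2, Gimap6 and Sh2d3c (r = 0.984). Lgals9, which encodes galectin-9, had 2760.8 in cochlear and 2065.0 in vestibular vascular endothelium, 94.9 and 450.1 in the cochlear and vestibular libraries labelled neurons, 135.0 and 118.9 in cochlear and vestibular mesenchyme, and 31.5 and 68.6 in cochlear and vestibular epithelial cells. Med20 matched the pattern with a narrow range, 656.0 and 644.3 in vascular endothelium and 405.9 to 539.4 elsewhere. Among the 8 genes, the r with the mean of the other 7 was lowest for Emcn, 0.739, and highest for Cd93, 0.980.

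Calcrl was matched best by St8sia4 (r = 0.986), a polysialyltransferase gene with 1551.3 in cochlear and 6991.0 in vestibular vascular endothelium, and then by Peg10, Serpinb9, Phldb2 and Jak1. The vestibular over cochlear endothelial ratio of these 5 ran from 1.19 for Jak1 to 4.51 for St8sia4, under the 20.8 of Calcrl. The 8 points of each r share the scaling of the table and the cell type labels, and the values are a description.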

How the data were processed

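mRNA-seq libraries of 8 sorted populations were analysed from a table of the authors, whose deposited signal per gene had been made from reads aligned with TopHat 1.0.0 to GRCm38, per the submitters' processing notes; counting and normalization are not given in the sources used here. The labels and methods give postnatal day 0 for these libraries, whereas the results text of the paper gives day 2. The columns of a mean and of the authors' own gene clusters were not used. GENCODE vM21 held 15030 of the 15275 identifiers and gave coordinates, GC content and length (for 99.0% of genes compared). Depth is unknown. limma 3.58.1 (R 4.3.3) was fitted to log2(value + 1) of all genes with cell type, organ and a mean-variance trend, Benjamini-Hochberg adjusted, and checked on simulated data; scipy 1.17.1 gave the correlations. With 1 library per cell and organ, p-values measure only the spread between these libraries. Members and gene lists were chosen with earlier results of these data known. Named were the 8 genes, all of the adrenomedullin and relatives lists, of every other list up to 3 called genes in each direction and 3 with the largest ratio above 4 each way, and the most similar genes. Alternatives were other pseudocounts (20, 0.1), filters, median-of-ratios scaling, no organ term, no trend, other ratio limits and leaving out each library.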

Additional observations from a re-analysis of the deposited data

Results flagged for a closer look

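Cochlear over vestibular ratios over 2-fold that ran in opposite directions in vascular endothelium and in another cell type were found for 4 of the 8 genes. The share of all genes with this pattern was not counted, so the count is not read as a trait of the 8 genes. Among the endothelial markers outside the 8 genes, Cldn5, Tie1, Egfl7 and Sox18 also had this pattern against the libraries labelled neurons. The other markers of that list did not. Each value is the log2 ratio in vascular endothelium minus that in the other cell type, from 1 library each, and the differences were not tested. Against the libraries labelled neurons it was 5.20 for Esam, 4.53 for Cdh5, 3.69 for Pecam1 and 3.50 for Ramp2, each higher in cochlear vascular endothelium but lower in the cochlear library labelled neurons. Against mesenchyme it was 3.96 for Esam and 2.28 for Cdh5. Against epithelial cells, where the cochlear value of Cdh5 and Pecam1 was the floor of 20, it was 3.94 for Cdh5 and 3.05 for Pecam1. Relative to genes of like GC content, the log2 ratio in vascular endothelium was 2.06 for Esam but only 0.63 for Cdh5, 0.76 for Pecam1 and 0.44 for Ramp2, under the 2-fold limit for these 3 genes.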

How the results depend on the processing

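Over 12 refits the log2 difference of vascular endothelium from the other cell types ran from 3.62 to 9.58 for the 8 genes, which were chosen on this contrast. Leaving out 1 library in turn gave 0 to 619 genes called higher in place of 910, 0 to 343 called lower in place of 785, and 0 to 21 of the 50 junction and surface genes called higher in place of 28. With 1 library fewer the model has fewer residual degrees of freedom. Testing only genes that reached 100 in any library gave 1239 called lower.

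Between the endothelial libraries, 567 genes were over the ratio limit in the cochlear and 750 in the vestibular direction. The counts were 433 and 898 with median-of-ratios scaling, which moved the split by over 10 percentage points. They were 2576 and 2483 (17 and 5 junction and surface genes) at a ratio above 2, 89 and 187 (3 and 0) at a ratio above 8, and 241 and 362 (5 and 0) at a value of at least 500. Relative to genes of like GC content, an alternative chosen after seeing the data, they were 162 and 577 (3 and 1), and the log2 ratio of Emcn turned to 0.83 from -0.55, against a GC bin whose median was -1.38. The organ term of the model sets libraries of the same organ together, and without it 1029 genes were called higher and 965 lower. The unknown depth and the floor of 20 limit the low values, such as those in epithelial cells.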

Other observations

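Lists of vessel types differed in how many of their genes were called higher in vascular endothelium, against 5.96% of all genes called higher and 5.14% lower. These lists, too, hold genes known from endothelium and were chosen with earlier results of these data known. Of 10 arterial genes 6 were called higher and 0 lower in vascular endothelium by limma, with a median difference of 3.09 on the log2 scale, led by the transcription factor gene Sox17 (7.10, SE 0.96, adjusted p = 0.0251), the Notch ligand gene Dll4 (6.0, adjusted p = 0.0336) and the connexin gene Gja4 (4.86, SE 0.87, adjusted p = 0.0385). Of 9 venous genes 2 were called higher and 0 lower (median 0.57), namely Aplnr, the apelin receptor gene, at 9.25 (SE 0.74, adjusted p = 0.0122) with 25882.3 in cochlear and 67384.5 in vestibular vascular endothelium, and Vwf at 4.71 (SE 0.31, adjusted p = 0.0090).

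Of 10 capillary and barrier genes 5 were called higher and 0 lower (median 3.01), led by the drug efflux pump gene Abcb1a (6.90, SE 0.67, adjusted p = 0.0168), the organic anion transporter gene Slco1a4 (4.89, SE 0.51, adjusted p = 0.0175) and the glucose transporter gene Slc2a1 (4.37, SE 0.43, adjusted p = 0.0169). Of 8 lymphatic genes 3 were called higher and 0 lower (median 1.49). Flt4 and Mmrn1, at 6.48 and 6.41, are also found in blood vessels that sprout or in veins, and Stab2 was low, with 82.6 in cochlear and 62.5 in vestibular vascular endothelium. The lymphatic genes Prox1 (-0.37), Lyve1 (1.36) and Pdpn (-3.70) were not called, and Prox1 and Pdpn had their highest values, 883.8 and 2522.8, in vestibular epithelial cells. Ratios above 4 between the endothelial libraries were found for Jag2, 4.84-fold higher in the cochlear one, for the venous gene Selp, which had 134.0 in cochlear vascular endothelium and the floor of 20 in vestibular vascular endothelium, and for Pdpn, 8.64-fold lower in the cochlear one. All these calls rest on the same 3 residual degrees of freedom.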
